A study of Mus musculus with 4 samples.

Results

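Imprinted genes are transcribed from the allele of a single parent, and 10 of them that are known from the pituitary and other neuroendocrine tissue were followed in gonadotropes, the pituitary cells that secrete luteinizing hormone and follicle-stimulating hormone. The 10 genes were chosen by symbol and are Dlk1, Meg3, Rian, Mirg, Peg3, Nnat, Ndn, Plagl1, Cdkn1c and Snrpn. Each symbol matched 1 of the 54532 rows of the deposited table, and all 10 passed the filter on low counts. Of the 4 libraries, all from males aged 10 to 12 weeks on a mixed background, 2 had a conditional knockout of Gata2 (cKO), a gene for a zinc finger transcription factor, and 2 were controls. The study's title places the knockout in gonadotropes, and the promoter that drove the recombinase, the deleted part of Gata2 and the alleles that the controls carry are not stated in the labels. The cells were described as sorted gonadotropes in the labels, while the series' design text speaks of bulk pituitaries. The labels do not state whether a library is 1 animal, so every p-value below rests on a spread between libraries that may be technical.

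The Dlk1-Meg3 cluster carries genes of opposite parental origin side by side. Dlk1, expressed from the paternal chromosome, codes for a membrane protein with EGF-like repeats that is related to Notch ligands, and Meg3, Rian and Mirg are noncoding RNAs of the maternal chromosome. Rian is the host transcript of box C/D snoRNAs and Mirg that of a large group of miRNAs. Paternally expressed genes elsewhere include Peg3, which codes for a zinc finger protein, Nnat, which codes for the small endoplasmic reticulum membrane protein neuronatin, and Plagl1, which codes for a zinc finger factor that slows cell division. Ndn, which codes for the MAGE family protein necdin, and Snrpn, which codes for a spliceosomal Sm protein, belong to the region that is lost in human Prader-Willi syndrome. Cdkn1c is expressed from the maternal chromosome and codes for an inhibitor of cyclin-dependent kinases.

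Sequences are given for the promoters of Nnat and Meg3, the members with the smallest p-values in the comparison, and of Dlk1, the protein-coding neighbour of Meg3. Each runs 5′ to 3′ from 250 bases before to 50 bases after a transcript start in RefSeq, build GRCm38.p6, and all lie on the plus strand. Nnat is at chr2:157559828-157560127, Meg3 at chr12:109540746-109541045 and Dlk1 at chr12:109452573-109452872. Capitals mark matches on either strand to TGCCGC, the core motif of the imprint-maintaining factor ZFP57, or to a GATA form. The GATA forms were AGATAA, the variant ending in G written AGATAG, the variant starting in T written TGATAA and the variant with both changes, TGATAG.
Nnat: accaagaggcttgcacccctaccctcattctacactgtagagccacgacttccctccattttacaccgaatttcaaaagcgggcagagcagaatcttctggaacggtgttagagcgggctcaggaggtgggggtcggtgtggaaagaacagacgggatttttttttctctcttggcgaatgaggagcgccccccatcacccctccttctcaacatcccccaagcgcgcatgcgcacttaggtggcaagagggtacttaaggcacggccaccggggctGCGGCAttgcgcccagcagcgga
Meg3: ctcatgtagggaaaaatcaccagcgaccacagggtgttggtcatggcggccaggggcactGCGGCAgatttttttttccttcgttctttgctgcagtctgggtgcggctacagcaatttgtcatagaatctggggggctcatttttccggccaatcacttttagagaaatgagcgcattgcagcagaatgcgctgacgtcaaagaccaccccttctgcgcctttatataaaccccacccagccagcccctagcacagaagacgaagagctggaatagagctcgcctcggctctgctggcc
Dlk1: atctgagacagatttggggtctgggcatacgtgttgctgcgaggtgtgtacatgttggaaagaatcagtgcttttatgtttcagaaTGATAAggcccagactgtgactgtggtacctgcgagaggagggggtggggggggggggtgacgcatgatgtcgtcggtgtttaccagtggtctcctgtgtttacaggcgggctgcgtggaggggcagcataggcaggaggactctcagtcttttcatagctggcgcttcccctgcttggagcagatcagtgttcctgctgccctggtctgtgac

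The Nnat and Meg3 windows each held 1 match to TGCCGC, read on the opposite strand, and the Dlk1 window held 1 GATA match. Promoter entries were found for 9 of the 10 members, 13 entries in all. The GATA forms occurred in 2 of the 13 entries, those of Dlk1 and Rian, and in 29.8% of all 32851 mouse promoter entries. TGCCGC occurred in 4 of the 13 entries, of Nnat, Meg3, Plagl1 and Snrpn, and in 11.6% of all entries. The Nnat window had 17 CpG dinucleotides, the printed Meg3 window 13 and the Dlk1 window 9, against a median of 7 over all entries. Of all entries, 68.6%, 62.1% and 54.2% had fewer than these windows, in that order. Entries of members ranged from 0 CpG for Rian and 1 for a second Meg3 entry to 26 for Plagl1. These matches are a description of letters in short windows.

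The noncoding RNAs of the cluster also carry small RNAs in their exons. Of the miRNA genes annotated between Dlk1 and Mirg, 6 lie wholly inside an exon of Meg3 or Mirg. Their mature sequences from RefSeq are shown because they are the products that these transcripts encode. Capitals mark the seed, bases 2 to 8. The first 3 lie in Meg3 and the others in Mirg, all on chromosome 12.
mmu-miR-1906: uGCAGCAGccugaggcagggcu
mmu-miR-770-5p: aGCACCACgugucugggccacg
mmu-miR-770-3p: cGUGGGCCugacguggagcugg
mmu-miR-134-5p: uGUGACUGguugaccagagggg
mmu-miR-134-3p: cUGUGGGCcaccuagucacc
mmu-miR-485-3p: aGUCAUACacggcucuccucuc
mmu-miR-377-5p: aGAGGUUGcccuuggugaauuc
mmu-miR-377-3p: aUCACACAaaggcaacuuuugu
mmu-miR-410-5p: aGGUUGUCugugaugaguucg
mmu-miR-410-3p: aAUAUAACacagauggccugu

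Among these 10 mature sequences each seed differed from the others. miR-410-5p had the seed of miR-494-5p, which is encoded elsewhere in the same window. Mature miRNAs were not measured in these poly(A) libraries. The rows of the 6 miRNA genes held 0 counts in all 4 libraries, as did those of 8 snoRNA genes inside Rian exons. Counts were held by 1 of 5 small RNA rows partly inside the members' exons and by 20 of 70 outside them. Reads on the 14 rows wholly inside also match the host exon, and the rule for assigning such reads is not given. Their 0 counts therefore say nothing about expression.

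The libraries held 15541553 and 18362182 estimated counts in cKO and 10646909 and 21135301 in controls, and 17349 genes were tested. Levels are counts in each 1000000 of the library after TMM scaling (CPM). Gata2 itself had 221 and 214 CPM in cKO and 537 and 526 CPM in controls (log2 fold change -1.29, SE 0.14, edgeR adjusted p = 0.0473). Control replicate 1 stood apart, with a Pearson's r of 0.889 to the other control across genes against 0.917 and 0.928 between control replicate 2 and the cKO libraries, so results are also given without it where it matters. Summed gonadotrope markers (Fshb, Lhb, Cga, Gnrhr and Nr5a1), all detected in every library, had 6660 and 7934 CPM in cKO and 15060 and 13610 CPM in controls.

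Most of the imprinted genes were abundant in the control libraries, which also held markers of other pituitary cell types (below). Divided by exon length, to allow comparison between genes, Nnat stood highest with 2610 ± 332 CPM per kb (SD, n = 2), rank 21 of 17343 tested genes with a length. Meg3 had 368 ± 15.1 CPM per kb, rank 63. Peg3, with 151 ± 1.21 CPM per kb, Dlk1, with 123 ± 9.75, and Plagl1, with 101 ± 2.04, ranked 154, 204 and 265. These genes therefore lay at or above the 98.5 percentile of tested genes. Rian followed with 72.9 ± 5.21 CPM per kb, at the 97.6 percentile, and Ndn with 36.9 ± 9.44, at the 93.9 percentile.

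Cdkn1c (20.3 ± 1.71 CPM per kb), Mirg (19.9 ± 3.96) and Snrpn (19.8 ± 0.286) were the lowest of the 10, near the 86.1 to 86.5 percentiles. The ranges of the control libraries overlapped between Cdkn1c and Mirg and between Mirg and Snrpn, so the order of these genes cannot be told. The ranges of all other neighbours in the order were apart, although 2 libraries give only a rough spread. The mean levels in cKO followed the same order from Nnat to Snrpn. The order depends on the length used. Divided by the longest annotated transcript instead, Rian had 164 CPM per kb, above Dlk1 and Plagl1 (150 each), and Mirg had 38, above Ndn (36.9).

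**Figure D1:**
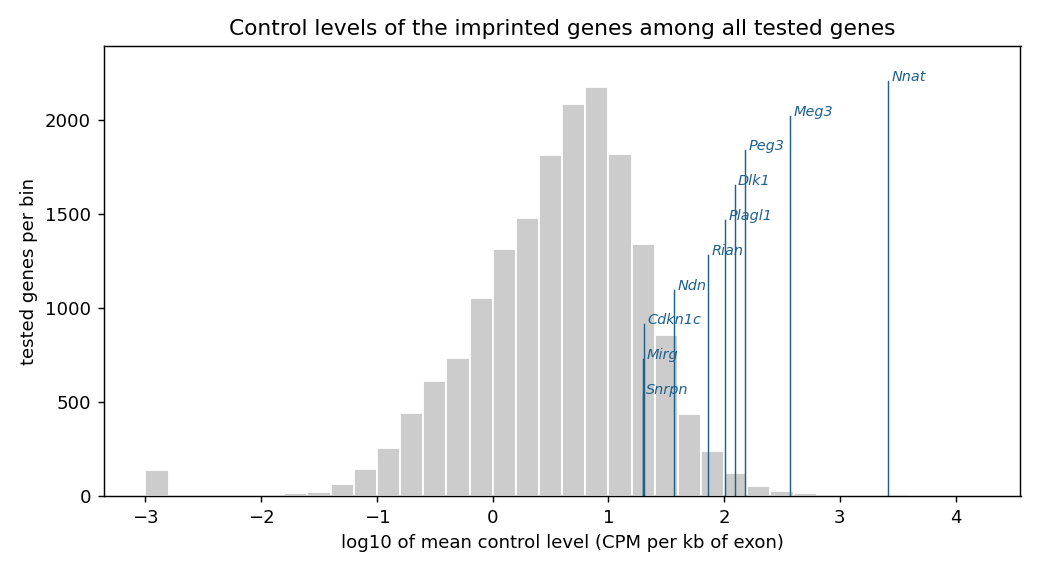
Histogram of the mean control level of all tested genes (x axis, log10 of CPM per kb of exon; y axis, genes per bin; genes at 0 fall in the leftmost bin), with a line for each imprinted gene at its own level (line heights carry no value). Nnat stands at 2610 CPM per kb, Meg3 at 368, and the lowest, Snrpn, at 19.8.

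Together the 10 genes held 1.94% and 1.99% of all counts in cKO and 1.69% and 1.67% in controls. Meg3, Rian and Mirg made up 0.939% and 0.973% in cKO and 0.856% and 0.791% in controls. The cKO libraries were higher in both shares, without overlap. Meg3 and Nnat held most of the counts of the 10 genes, and Meg3 most of the second share. The shares therefore mainly follow these very abundant genes, and 5 of the 10 members had log2 fold changes below 0.

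The comparison of cKO with controls asks which transcripts differ when Gata2 is deleted in gonadotropes. None of the 10 members passed edgeR's quasi-likelihood test over all genes (0 of 10 with adjusted p under 0.05, smallest adjusted p 0.385, against 0.0576% of tested genes called). DESeq2 called 1 member, against 5.77% of genes, and limma-voom 2, against 1.48%. At an unadjusted p under 0.05 in edgeR there were 3 members, Nnat, Meg3 and Cdkn1c, while 7.04% of tested genes were below it. The groups did not overlap for 6 members, against 39% of tested genes. They were higher in cKO for 4 members and lower for 2, against 19.7% and 19.3% of tested genes. Over the 5220 tested genes whose control CPM was at least that of the lowest member, groups did not overlap for 46% and 12.8% had an unadjusted p under 0.05. The largest log2 fold change was 0.60 in size, and 0 members exceeded 1, a size passed by 22.9% of tested genes. The median over the members was 0.12, beside 0.03 over all tested genes. The median size of the change was 0.25 for the members and 0.23 for those 5220 genes.

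**Figure D2:**
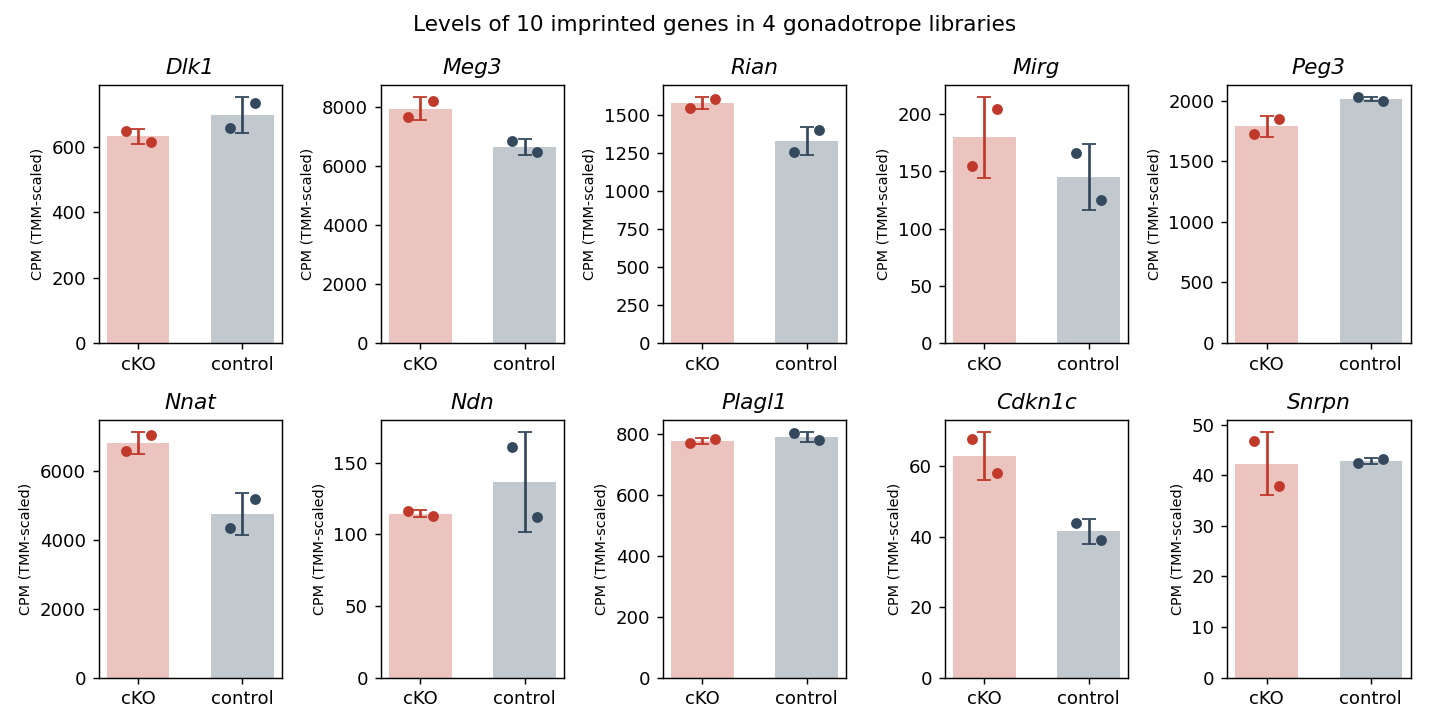
CPM (y axis, from 0) of each imprinted gene in the cKO and control libraries; points are libraries, bars the mean and whiskers the SD of 2 libraries. The cKO points lie above the control points for Meg3, Rian, Nnat and Cdkn1c, below them for Dlk1 and Peg3, and among them for Mirg, Ndn, Plagl1 and Snrpn.

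In the Dlk1-Meg3 cluster the maternal noncoding RNAs had higher means in cKO and Dlk1 a lower one, none past the test. Dlk1 (ENSMUSG00000040856.17, mm10 chr12:109452823-109463336) had 649 and 615 CPM in cKO, against 658 and 736 CPM in controls. Both cKO libraries lay below both controls, but by less than the controls differed from each other. The log2 fold change was -0.14 (SE 0.13, 95% interval -0.45 to 0.17, edgeR adjusted p = 0.985).

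Meg3 (ENSMUSG00000021268.17, chr12:109541001-109571726) had 7680 and 8230 CPM in cKO, against 6860 and 6470 CPM in controls. The cKO libraries were both above the controls. Its log2 fold change was 0.26 (SE 0.09, interval 0.05 to 0.46), with an unadjusted p of 0.0212 in edgeR and an adjusted p of 0.645. With limma-voom its adjusted p was 0.000193, and with DESeq2 it was 0.219. Rian (ENSMUSG00000097451.10, chr12:109603940-109661716) had 1550 and 1610 CPM in cKO and 1260 and 1400 CPM in controls, again without overlap (0.25, SE 0.11, interval -0.02 to 0.52, edgeR adjusted p = 0.727). Mirg (ENSMUSG00000097391.8, chr12:109729764-109749460) had 155 and 205 CPM in cKO and 166 and 125 CPM in controls. Here cKO replicate 1 lay between the controls, and the change was 0.31 (SE 0.22, edgeR adjusted p = 0.922).

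Ratios within a library do not depend on how libraries are scaled. For each Dlk1 count there were 11.8 and 13.4 Meg3 counts in cKO and 10.4 and 8.79 in controls. The corresponding ratio of Rian to Dlk1 was 2.39 and 2.61 in cKO and 1.92 and 1.90 in controls. Each of these ratios was 1.31-fold higher in cKO without overlap. The exact permutation test (two-sided) gave p = 0.333 for each, the smallest that 2 against 2 libraries allow. Meg3 and Rian were already higher and Dlk1 lower without overlap, so this separation was fixed in advance and adds no support. The ratio of Mirg to Dlk1 was 0.239 and 0.333 in cKO and 0.252 and 0.170 in controls, which overlapped. Among the noncoding RNAs themselves Rian stayed close in proportion to Meg3, with 0.202 and 0.195 Rian counts for each Meg3 count in cKO and 0.184 and 0.216 in controls. Mirg varied more between libraries, with 0.0997 and 0.127 counts for each Rian count in cKO and 0.131 and 0.0895 in controls, which overlapped.

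**Figure D3:**
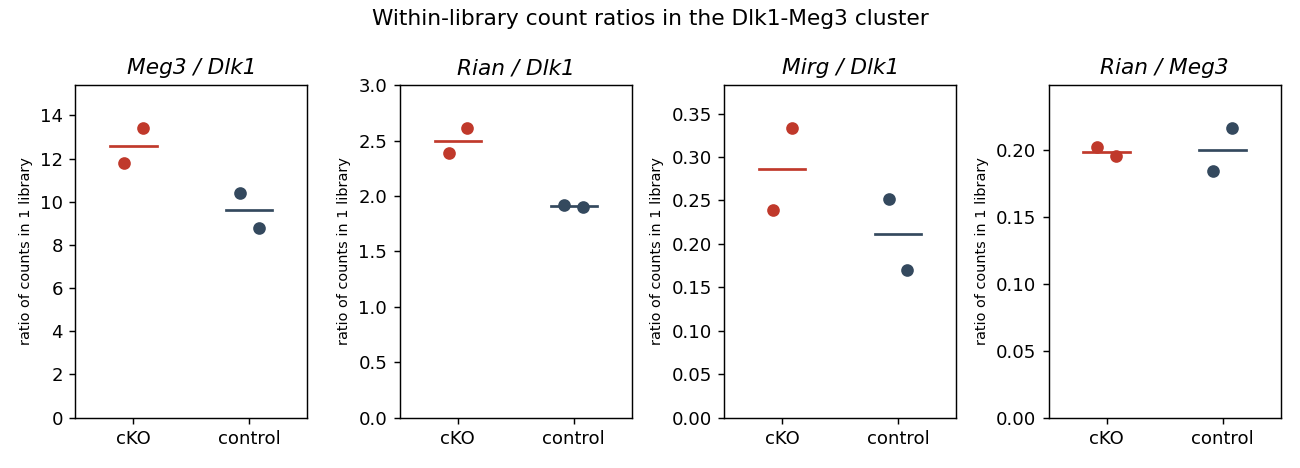
Ratios of estimated counts within each library (y axis, from 0) for pairs of genes of the Dlk1-Meg3 cluster; points are libraries and lines the mean of 2. Meg3 and Rian relative to Dlk1 lie higher in both cKO libraries than in both controls, whereas Rian relative to Meg3 lies between 0.184 and 0.216 in all 4.

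Other genes of the locus spanned a wide range of levels. Rtl1, a retrotransposon-derived protein gene that lies opposite the noncoding RNAs, had 28.2 and 42.1 CPM in cKO and 18.6 and 40.5 CPM in controls. Dio3, which codes for the enzyme that inactivates thyroid hormone at the far end of the domain, had 0 counts in all libraries. Begain, next to Dlk1, had 154 and 171 CPM in cKO and 144 and 102 CPM in controls (log2 fold change 0.41, SE 0.22, edgeR adjusted p = 0.793).

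Nnat had the smallest p among the members. Nnat (ENSMUSG00000067786.16, chr2:157560078-157562522) had 6600 and 7050 CPM in cKO, against 4340 and 5200 CPM in controls. Both cKO libraries were above both controls, and the cKO level was 143% of the control level. Its log2 fold change was 0.52 (SE 0.11, interval 0.26 to 0.78, unadjusted p = 0.00217 and adjusted p = 0.385 in edgeR), so it missed the threshold over all genes. The other tests divided: the adjusted p was 0.00166 with DESeq2, which called 5.77% of genes, 2.8e-09 with limma-voom, which called 1.48%, and 0.157 with edgeR's newer quasi-likelihood method. Without control replicate 1 the change was 0.39 (edgeR adjusted p = 0.0189) and without control replicate 2 it was 0.66 (adjusted p = 0.000715), in a fit where the median of all tested genes was also shifted, to 0.25. These fits called 0.32% and 3.5% of genes. It was not called without cKO replicate 1 (0.56, edgeR adjusted p = 0.816) or without cKO replicate 2 (0.46, adjusted p = 0.835).

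Nnat lies in an intron of Blcap on the opposite strand, and their annotated exons do not overlap. Blcap, imprinted in brain through some of its transcripts, had 118 and 109 CPM in cKO and 137 and 144 CPM in controls. Its change was -0.31 (SE 0.18, edgeR adjusted p = 0.813), without overlap. Within each library there were 56.0 and 64.9 Nnat counts for each Blcap count in cKO and 31.6 and 36.0 in controls. The ratio was 1.79-fold higher in cKO (exact permutation test, two-sided, p = 0.333, the smallest possible). With Nnat higher and Blcap lower without overlap, this separation too was fixed in advance.

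Peg3 had slightly lower values in cKO. Peg3 (ENSMUSG00000002265.16, chr7:6703892-6730431) had 1730 and 1850 CPM in cKO and 2030 and 2000 CPM in controls. Both cKO libraries lay below both controls, which were nearly equal. The log2 fold change was -0.17 (SE 0.11, interval -0.42 to 0.08, edgeR adjusted p = 0.871). Of its imprinted neighbours, the zinc finger gene Zim1 had 103 and 90.5 CPM in cKO and 114 and 148 CPM in controls (-0.43, SE 0.21, edgeR adjusted p = 0.744), and Usp29, which shares its promoter region with Peg3, had 0.12 (SE 0.26). Zim2, Zim3 and Zfp264 had 0 counts.

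The Prader-Willi region genes gave no difference beyond the spread of the libraries. Ndn (ENSMUSG00000033585.5, chr7:62346569-62350262) had 116 and 113 CPM in cKO and 161 and 112 CPM in controls. Control replicate 1 alone was high, and the change of -0.25 (SE 0.22, edgeR adjusted p = 0.975) became 0.02 without that library. Snrpn (ENSMUSG00000102252.5, chr7:59982495-60140219) had 46.7 and 37.8 CPM in cKO and 42.4 and 43.2 CPM in controls, a change of -0.02 (SE 0.28, interval -0.68 to 0.64, edgeR adjusted p = 0.999). The controls fell between the cKO libraries.

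The Snrpn count is uncertain because the gene shares exons with others on its strand. The upstream reading frame gene Snurf, transcribed together with Snrpn, had 0 counts in every library and overlaps 10.0% of the Snrpn exon bases. Gm38393 overlaps 27.3% of them and had 150 and 150 counts in cKO and 76 and 73 counts in controls. These counts are not scaled, and the control libraries held 10646909 and 21135301 counts, so near-equal counts there are different levels. The rule by which reads in shared exons were assigned is not given. Of the other genes of the region, Magel2, a MAGE family relative of Ndn, had 3.26 CPM in cKO replicate 2 and 0 elsewhere, Mkrn3 1.01 CPM in the same library and 0 elsewhere, and Peg12 had 0 throughout. Atp10a, a phospholipid-transporting ATPase gene, had 71.8 and 30.6 CPM in cKO and 26.7 and 20.4 CPM in controls (log2 fold change 1.12, SE 0.45, edgeR adjusted p = 0.692).

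The growth-restraining genes Plagl1 and Cdkn1c differed from each other in pattern. Plagl1 (ENSMUSG00000019817.18, chr10:13060504-13131694) had 769 and 782 CPM in cKO and 801 and 779 CPM in controls. All 4 libraries lay close together, and the log2 fold change was -0.03 (SE 0.12, interval -0.31 to 0.26, edgeR adjusted p = 0.999). Cdkn1c (ENSMUSG00000037664.13, chr7:143458339-143461050) had 67.6 and 58.0 CPM in cKO and 43.9 and 39.0 CPM in controls. Both cKO libraries exceeded both controls, and the cKO level was 152% of the control level. The change was 0.60 (SE 0.26, interval 0.00 to 1.20), with an adjusted p of 0.70 in edgeR. The unadjusted p ranked 1221 of all tested genes, the last below 0.05.

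Cdkn1c shares 30.7% of its exon bases with the antisense gene Gm44732, which had 0 counts, and the strand setting is not known. In the imprinted domain of Cdkn1c, Tssc4 had 35.4 and 33.2 CPM in cKO and 63.3 and 46.9 CPM in controls (-0.68, SE 0.29, edgeR adjusted p = 0.70). Kcnq1ot1, the paternal noncoding RNA that silences the domain on that chromosome, had 98.1 and 92.5 CPM in cKO and 54.5 and 87.4 CPM in controls (0.42, SE 0.27). Phlda2 had 0 counts.

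**Figure D4:**
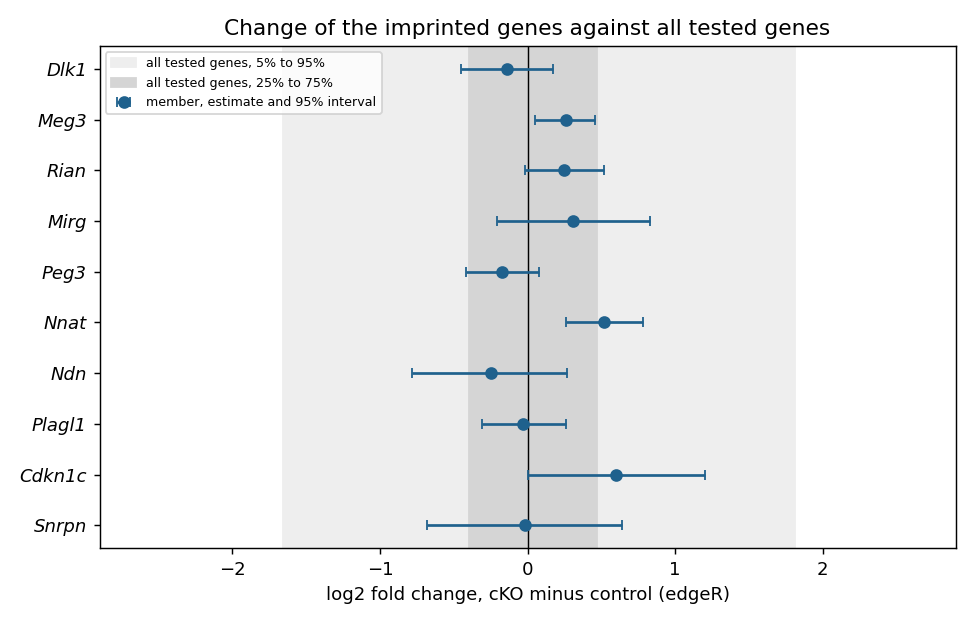
Log2 fold change of each imprinted gene, cKO minus control, with its 95% interval from edgeR (x axis), over bands that hold the middle 50% and 90% of all tested genes. Nnat (0.52) and Cdkn1c (0.60) lie just outside the inner band, which ends at 0.47, and all 10 estimates lie within the outer band from -1.66 to 1.81.

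Sorted by the parent whose allele is expressed, a grouping made after the values were seen, the 4 maternally expressed members (Meg3, Rian, Mirg and Cdkn1c) had log2 fold changes above 0. Of the 6 paternally expressed members 1 was above 0, Nnat, and 5 were below. Since 0 members passed the test and Dlk1, Mirg, Plagl1, Ndn and Snrpn differed by less than their controls did, this split is a description of estimates. It held in every fit of all 4 libraries, whereas Ndn without control replicate 1 (0.02) and Snrpn without cKO replicate 2 (0.11) stood above 0. Meg3, Rian and Mirg lie in the same cluster, so they are not independent cases. Outside the members the split did not hold for maternal Kcnk9 (log2 fold change -1.61) or paternal Kcnq1ot1 (0.42), neither past edgeR's test. The remaining imprinted genes were not sorted by parent.

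**Figure D5:**
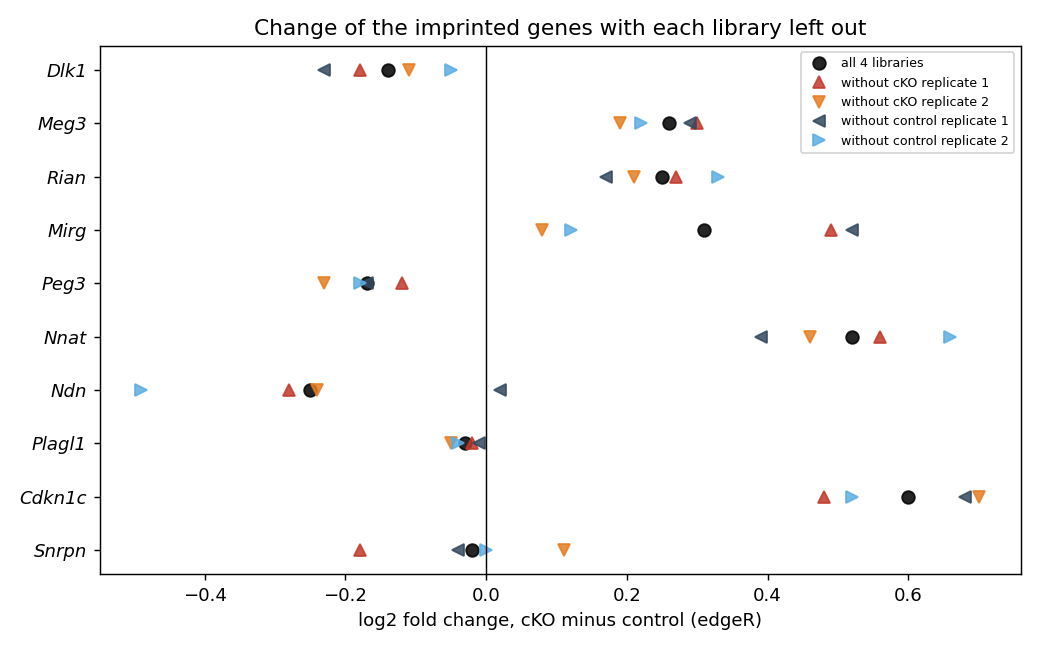
Log2 fold change of each imprinted gene (x axis) with all 4 libraries and with each library left out in turn. Nnat stays between 0.39 and 0.66 and Meg3 between 0.19 and 0.30, whereas Mirg ranges between 0.08 and 0.52 and Ndn between -0.49 and 0.02.

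Imprinted genes beyond the 10 gave 0 calls as well. With the members there were 53 tested of 73 listed imprinted genes, 0 called by edgeR over all genes and 10 with an unadjusted p under 0.05, against 7.04% of all tested genes. DESeq2 called 5 of them (Nnat, Kcnk9, Gnas, Nap1l5 and Rasgrf1), against 5.77% of all genes, and limma-voom 4 (Nnat, Meg3, Kcnk9 and Gnas), against 1.48%. Of the 53, 35 were higher and 18 lower, with a median log2 fold change of 0.24. Among 16 tested imprinted neighbours of the members 11 were higher and 5 lower. In other clusters 27 genes were tested, 19 higher and 8 lower. The smallest p there belonged to Kcnk9, Gnas and Peg13.

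Gnas codes for the stimulatory G protein alpha subunit and is imprinted in the pituitary. It had 2350 and 2510 CPM in cKO and 1710 and 1790 CPM in controls (log2 fold change 0.48, SE 0.11, edgeR adjusted p = 0.394). The growth-promoting gene Igf2 had 0 and 1.74 CPM in cKO and 0 and 0.43 CPM in controls, and the noncoding RNA H19 beside it had 0 counts.

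Genes linked to the members by function were also not called by edgeR. For comparison, 7.04% of all tested genes had an unadjusted p under 0.05 in edgeR, 5.77% were called by DESeq2 and 1.48% by limma-voom. In the Notch pathway, which DLK1 is known to interact with, 0 of 23 tested genes passed (1 at an unadjusted p under 0.05). Of these genes 17 were higher and 6 lower, and the median log2 fold change was 0.19. Some of the higher genes had few counts, such as Notch1, with 3.15 and 0 CPM in cKO and 0 and 1.48 CPM in controls. Hes6, an inhibitor of HES factors, had 62.9 and 80.1 CPM in cKO and 128 and 119 CPM in controls (-0.79, SE 0.21, edgeR adjusted p = 0.543), and was called by DESeq2, the 1 gene of the list so called, and not by limma-voom. Rfng had -0.65 (SE 0.40). Of 15 factors that maintain imprints or DNA methylation 0 passed, 0 at an unadjusted p under 0.05 and 0 with DESeq2 or limma-voom, and the median was 0.01. Trim28, the co-repressor that ZFP57 recruits, had -0.23 (SE 0.18), and Zfp57 had 13.3 and 2.81 CPM in cKO and 0 and 3.15 CPM in controls.

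Among 12 Sm and U1 or U2 particle proteins, the functional relatives of SNRPN, 0 passed (1 at an unadjusted p under 0.05) and the median was 0.03. Snrnp70, called by DESeq2 and limma-voom, had 630 and 665 CPM in cKO and 441 and 482 CPM in controls (0.49, SE 0.13, edgeR adjusted p = 0.547). Snrpb, the biallelic relative of Snrpn, had 68.9 and 83.2 CPM in cKO and 101 and 78.9 CPM in controls, which overlapped. Of 15 tested genes of the early cell cycle 0 passed (2 at an unadjusted p under 0.05, 2 with DESeq2 and 1 with limma-voom). Among them 6 were higher and 9 lower. The shares over all tested genes were the 7.04%, 5.77% and 1.48% given above. Cdkn1b, of the same inhibitor family as Cdkn1c, had 149 and 117 CPM in cKO and 199 and 230 CPM in controls (-0.69, SE 0.19, edgeR adjusted p = 0.553), the opposite side to Cdkn1c, and was called by DESeq2 and limma-voom.

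Sums of markers of some other cells differed between the groups in the same libraries, and their part in the members' values was not tested. Of all tested genes, 19.7% were higher and 19.3% lower in cKO without overlap. An unadjusted p under 0.05 in edgeR was reached by 7.04%, and 0.0576% were called. Of the 4 lactotrope markers 0 passed edgeR's test (2 at an unadjusted p under 0.05) and 3 were higher in cKO without overlap. They summed to 1317 and 1327 CPM in cKO and 340 and 610.9 CPM in controls, of which Prl alone had 1250 and 1270 CPM in cKO and 312 and 583 CPM in controls. Of the 4 stem cell markers 0 passed (1 at an unadjusted p under 0.05) and 3 were higher without overlap, with a sum of 102.9 and 120.6 CPM in cKO and 53.65 and 52.66 CPM in controls. All 5 gonadotrope markers had lower means, 4 without overlap, and Fshb passed (edgeR adjusted p = 0.0381). Nr5a1 hardly differed, with 275 and 372 CPM in cKO and 277 and 397 CPM in controls (log2 fold change -0.06, SE 0.23). Fewer cells of a type and less RNA per cell cannot be told apart in such libraries. Somatotrope markers summed to 2158 and 387 CPM in cKO and 1133 and 2388 CPM in controls, nearly all from Gh. Gh and Pappa2 overlapped between the groups. Ghrhr was lower without overlap, with 0 and 0.0562 CPM in cKO and 8.64 and 3.82 CPM in controls. Markers of corticotropes and melanotropes summed to 6338 and 7507 CPM in cKO and 7528 and 10200 CPM in controls. Pomc alone had 7160 and 9810 CPM in controls, where Lhb had 5140 and 4100 CPM. The members' levels can therefore not be assigned to gonadotropes alone. The 3 thyrotrope markers summed to 135.6 and 92.29 CPM in cKO and 77.2 and 68.72 CPM in controls, mostly from Dio2. They did not move together: Dio2 and Trhr were higher in cKO without overlap. The hormone gene Tshb was lower without overlap, with 7.33 and 7.08 CPM in cKO and 22.3 and 13.7 CPM in controls.

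Cells from outside the endocrine lineages left little signal. Endothelial markers summed to 18.97 and 10.06 CPM in cKO and 17.55 and 30.54 CPM in controls, fibroblast and pericyte markers to at most 18.65 CPM, macrophage and leukocyte markers to at most 21.19 CPM and pituicyte markers to at most 7.717 CPM in any library. C1qa and Rax had 0 counts. Mitochondrially encoded protein genes held 7.58% and 8.74% of counts in cKO and 5.36% and 6.04% in controls, and with them left out the members' log2 fold changes kept their signs.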

How the data were processed

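RNA-seq of 4 libraries was analysed from the deposited table. Per the submitters' processing notes the authors used STAR 2.5.1b and featureCounts 1.5.0-p1 on mm10, with no annotation release, strand setting or rule for multiply matching reads named there. The deposited values are estimated counts, not scaled between libraries, and 13.4% of those above 0 are not whole. Names, positions and exon lengths came from GENCODE M21, same build, which matched 54495 of 54532 identifiers without their version.

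Counts were rounded, filtered with filterByExpr (minimum count 10, minimum total 15) and scaled with TMM. Groups were compared by the quasi-likelihood F-test (two-sided) of edgeR 4.0.16 (R 4.3.3, package default), group as the only term, Benjamini-Hochberg adjusted over all genes, threshold 0.05. The SE is the size of the log2 fold change, cKO minus control, divided by the square root of F. Levels per kb used the union of annotated exons. Alternatives were other scalings and filters, DESeq2 1.42.0, limma-voom (limma 3.58.1), other edgeR settings, the replicate number as a block, mitochondrial genes left out and each library left out. The members and gene lists were chosen with earlier results of these data known. From each related list up to 3 genes with the smallest p were eligible for naming, and other named genes (such as Begain, Rtl1, Usp29, Kcnq1ot1, Blcap, Igf2, Trim28, Zfp57, Snrpb and those at 0) were chosen after their values were seen.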

Additional observations from a re-analysis of the deposited data

How the results depend on the processing

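The count of 10 genes called over the table became 253 without a filter, 3 with 1 CPM in 2 libraries, 26 with robust=TRUE, 47 with edgeR's newer method, 256 by limma-voom, 963 by DESeq2 and 66 to 681 with 1 library left out. The 0 members called became 1 with DESeq2 (Nnat), 2 with limma-voom (Nnat and Meg3) and 0 to 1 with 1 library left out. DESeq2 called 5.77% of genes and limma-voom 1.48%. The cause was not tested. Log2 fold changes of all 10 members kept their sign in the 11 fits of all 4 libraries under other settings. With 1 library left out Ndn ranged from -0.49 to 0.02 and Snrpn from -0.18 to 0.11, and the other 8 kept their sign. In such fits the lone library is taken to vary like those of the other group. The labels do not say whether replicate numbers pair the libraries. The correlation of replicate deviations between the groups was -0.011 across genes, which with 2 libraries per group cannot decide it. The replicate block called 7 genes and 0 members. With 2 libraries per group the SE of the members' log2 fold changes ran from 0.09 to 0.28, so precision differed between members.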

Other observations

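Kcnk9, Peg13 and Trappc9 form an imprinted cluster on chromosome 15, singled out after their values were seen. Kcnk9, a maternally expressed potassium channel gene, had 35.4 and 38.7 CPM in cKO and 91.8 and 135 CPM in controls, a larger difference than that of any of the 10 members and without overlap (log2 fold change -1.61, SE 0.26, edgeR adjusted p = 0.206). The noncoding RNA Peg13 had 174 and 141 CPM in cKO and 269 and 205 CPM in controls (-0.58, SE 0.20, edgeR adjusted p = 0.647). Trappc9, whose intron holds Peg13, had 66.2 and 82.8 CPM in cKO and 90.0 and 84.3 CPM in controls (-0.23, SE 0.22). None of these passed edgeR's test, while Kcnk9 was called by DESeq2 and limma-voom.

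Tested genes within 500 kb of the members gave 0 calls by edgeR (78 genes, 5 at an unadjusted p under 0.05, 2 called by DESeq2 and 0 by limma-voom). Over all genes the shares were 7.04% at an unadjusted p under 0.05 in edgeR, 5.77% with DESeq2 and 1.48% with limma-voom. The median log2 fold change, 0.03 over all tested genes, was 0.32 around Dlk1 (15 genes), 0.17 around Nnat (15 genes), 0.13 around Peg3 (14 genes), 0.30 around Cdkn1c (17 genes), 0.80 around Snrpn (3 genes), -0.13 around Ndn (5 genes) and -0.21 around Plagl1 (9 genes). Around Meg3 (14 genes) it was 0.32, and around Rian and Mirg (13 genes each) 0.24, in windows that overlap that of Dlk1.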
